A study of Homo sapiens with 6 samples.

Results

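Colon epithelial cells release chemokines and other inflammatory proteins, and 10 of the genes that encode them were followed here in HT29 cells with and without knockdown of FITM2. The 10 genes were taken by name from the gene count table, which lists 58978 genes: CXCL1, CXCL2, CXCL3, CXCL8, CXCL16, CCL20, CCL28, IL18, IL32 and LCN2. All 10 were found, and 8 of them passed the filter on low counts and were tested. HT29 is an established human colorectal adenocarcinoma line. One group of 3 libraries carried a control short hairpin RNA (shCTRL, genotype given as WT) and the other group of 3 carried a hairpin against FITM2 (shFITM2, FITM2 knockdown). Both groups were labelled as untreated, so no added cytokine or bacterial product is named for either. FITM2 is an endoplasmic reticulum membrane protein needed for lipid droplet budding. The labels do not say how many hairpins or clones were used, or whether replicates were separate cultures, so the p-values cover the spread among these libraries alone.

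Chemokines are small secreted proteins that draw leukocytes along a gradient by way of receptors on the leukocyte surface. CXCL1, CXCL2, CXCL3 and CXCL8 (interleukin-8) carry a glutamate-leucine-arginine motif and attract neutrophils, and intestinal epithelium makes them when NF-kB, a family of inflammation-responsive transcription factors, is activated by interleukin-1, tumour necrosis factor or bacterial products. CCL20 attracts cells with the receptor CCR6, CCL28 attracts antibody-secreting cells to mucosal surfaces, and CXCL16 is made as a membrane protein and shed by ADAM proteases. IL18 is stored as a precursor that caspases cut, IL32 is an intracellular and secreted inflammatory protein, and LCN2 (lipocalin-2) binds bacterial siderophores and so withholds iron from bacteria.

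The neutrophil chemokine genes share a promoter element, which is shown here because these genes are known NF-kB targets. The windows below lie before the start of each gene in RefSeq on GRCh38.p14, read 5′ to 3′ on the gene's own strand, with the match in capitals and 10 bases on either side. The looser pattern GGGNNNNNCC was searched, and GGGAATTTCC is the match of it that CXCL1, CXCL2 and CXCL3 share and whose last 9 bases, GGAATTTCC, CXCL8 also holds. Capitals mark GGGAATTTCC in CXCL1, CXCL2 and CXCL3, GGAATTTCC in CXCL8 and the GGGNNNNNCC match in LCN2.
CXCL1: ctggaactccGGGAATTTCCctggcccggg
CXCL2: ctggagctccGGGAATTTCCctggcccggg
CXCL3: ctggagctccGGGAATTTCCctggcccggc
CXCL8: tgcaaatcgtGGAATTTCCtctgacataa
LCN2: gcagcactccGGGAATGTCCctcactctcc
These are chr4:73869304-73869333 (plus strand), chr4:74099254-74099283 (minus), chr4:74038749-74038778 (minus), chr4:73740468-73740496 (plus) and chr9:128149267-128149296 (plus). The matches began 79, 78, 79, 91 and 176 bases before the respective RefSeq starts. Gene bounds given further on come from the count table and differ from these starts. The windows of CXCL2, CXCL3 and LCN2 lie within those bounds.

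RefSeq promoters were matched for 8 of the 10 genes, all but CXCL16 and IL18. Both strands of the 250 bases before the start were searched. GGGAATTTCC was found in 0.142% of 35116 promoters, and among the 8 genes in CXCL1, CXCL2 and CXCL3, from which it was taken. GGAATTTCC, which lies within GGGAATTTCC, was found in 0.413% of promoters and was also held by CXCL8. It was chosen for being in CXCL8, so that match was set in advance. GGGNNNNNCC was found in 54.4% of promoters and in at least 1 entry of each of the 8 genes. Its matches in CCL20, CCL28 and IL32 are not shown, so LCN2 is not particular in holding it. The pattern overlaps GGGAATTTCC, and in the LCN2 window also matched on the other strand 1 base further on. A match is a string of letters and was not tested as a binding site.

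The libraries held 16964075 to 18855731 counts. FITM2 itself was lower in every shFITM2 library, at 46.0% of its control level in CPM (reads per 1000000 after scaling to TMM library sizes). The log2 fold change of FITM2, always shFITM2 minus shCTRL and here with its SE, was −1.12 ± 0.157 (Benjamini-Hochberg adjusted p = 0.000242, quasi-likelihood test in edgeR). Differences between these libraries followed the GC content of the transcripts. Each library's log2 deviation from the gene mean over all libraries was set against GC. Its slope was −0.34 to −0.06 per 10 percentage points in the shCTRL libraries and 0.18 to 0.26 in the shFITM2 libraries. These slopes are relative, so negative slopes in some libraries go with positive ones in others. Among the controls, shCTRL replicate 3 lay apart at −0.06. The comparisons are therefore given from the group fit, which has the hairpin group as its sole term, and from a fit with a GC offset, which takes out of each library its own smooth trend on GC content. With the offset FITM2 had −1.10 (adjusted p = 6.48e-05, edgeR). For genes of the 10 called in either fit, values without shCTRL replicate 3 are also given. All 14 epithelial markers were tested, among them EPCAM, KRT8 and CDX2. The 12 stromal and endothelial markers summed to 2.42 to 4.11 CPM per library. The 17 leukocyte markers summed to 10.7 to 13.9 CPM in shCTRL and 12.5 to 15.3 in shFITM2, most of it CD14 (10.6 and 11.3 CPM), with CD8A, MS4A1 and FCGR3A at 0.

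Of the 8 tested genes, LCN2 and CXCL16 were called higher and IL18 lower in shFITM2 in the group fit, at an adjusted p under 0.05. Over all 14809 genes tested, 48.7% were called, 24.2% higher and 24.5% lower, so 2 and 1 of 8 is a share near or below the background. The fit with the GC offset called 1 of the 8, CXCL8, as higher and none as lower (none of the 8 was lower at an unadjusted p under 0.05 either, in edgeR), against 29.2% of 14635 genes called, 11.8% higher and 17.4% lower. No gene of the 10 was called in both fits. The median log2 fold change of the 8 was −0.04 in the group fit and 0.08 with the offset, beside −0.0002 and −0.03 over all genes tested. Libraries of the groups did not overlap for 3 of the 8 (LCN2, CCL28 and IL18), against 59% of all genes tested. In bulk libraries, fewer expressing cells and less RNA per cell cannot be told apart.

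**Figure D1:**
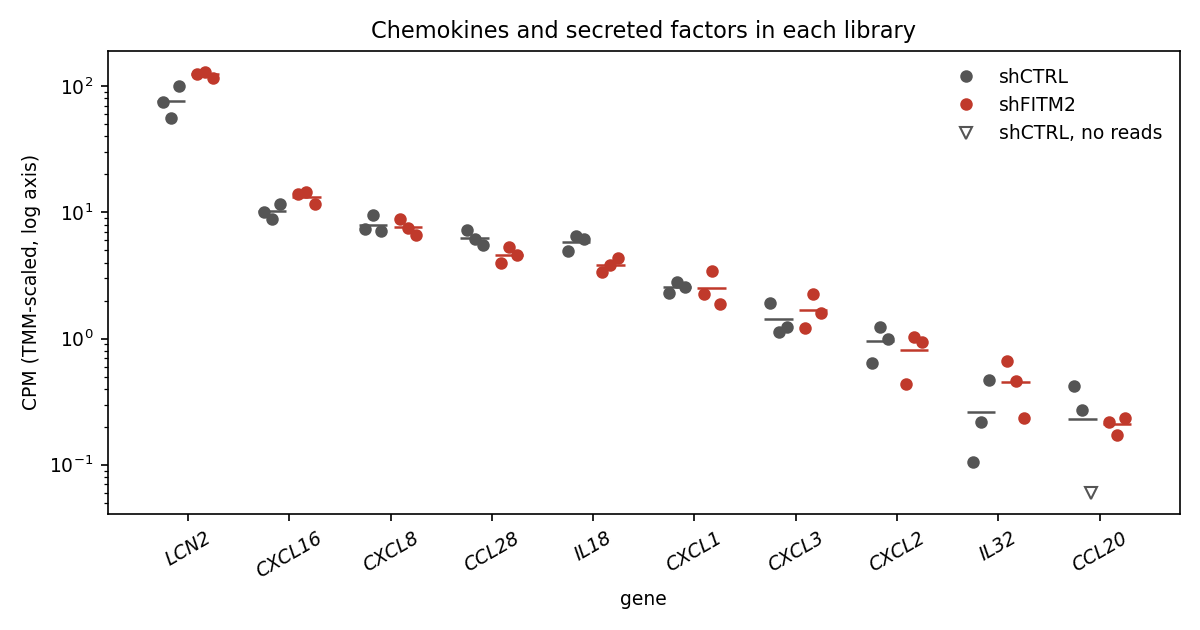
CPM of the 10 genes in each library on a log axis, 3 shCTRL (grey) and 3 shFITM2 (red) libraries per gene, with a line at each group's mean and an open triangle for a library with no reads. LCN2 lies above all others in every library, and its shFITM2 libraries (116.6 to 130.02 CPM) lie above its shCTRL libraries (55.5 to 99.95 CPM).

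Per kilobase of gene length, LCN2 was the highest of the 10 in control cells, at 48.1 ± 13.9 CPM per kb (SD, n = 3). CXCL16 (3.65 ± 0.504) and CXCL8 (3.52 ± 0.598) followed, with overlapping libraries. IL18 (2.22 ± 0.31) and CXCL1 (1.97 ± 0.207) also overlapped, and lay above CCL28 (1.39 ± 0.189). CXCL3 (0.642 ± 0.19) and CXCL2 (0.639 ± 0.204) did not differ beyond their spread. CCL20 (0.145 ± 0.135) and IL32 (0.0822 ± 0.058) came last and overlapped. In shFITM2 the order was the same except that CXCL1 stood before IL18 and IL32 before CCL20, each pair with overlapping libraries. LCN2 supplied 60.1% to 73.7% of the reads of the 10 genes in the shCTRL libraries and 77.2% to 78.4% in shFITM2.

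The neutrophil chemokines were led by CXCL8. CXCL8 (ENSG00000169429, chromosome 4, 73740506 to 73743716, plus strand, GRCh38) had 7.37, 9.57 and 7.10 CPM in shCTRL and 8.78, 7.48 and 6.66 CPM in shFITM2, from 113 to 177 reads. The groups overlapped, and the log2 fold change in the group fit was −0.07 ± 0.167 (95% interval −0.43 to 0.30; adjusted p = 0.759, edgeR). The CXCL8 transcript has 33.4% GC, the lowest of the 10. Tested genes were split by GC into 10 equal bins, and in the lowest bin (27.8% to 38.7% GC) the median log2 fold change in the group fit was −0.47.

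After the GC offset CXCL8 stood at 6.08, 7.19 and 6.54 GC-adjusted CPM in shCTRL and 11.2, 9.07 and 7.60 in shFITM2. The groups then did not overlap, and CXCL8 was called higher, at 0.49 ± 0.158 (adjusted p = 0.0294, edgeR, with the offset). CXCL8 missed the threshold when shCTRL replicate 1 was left out (adjusted p = 0.109), likewise shFITM2 replicate 1 (0.198) or replicate 2 (0.0812). Without shCTRL replicate 3 the values were −0.15 (adjusted p = 0.448) in the group fit and 0.47 (adjusted p = 0.0204) with the offset.

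CXCL1, CXCL2 and CXCL3 had few reads and were not called in either fit. CXCL1 (ENSG00000163739, chromosome 4, 73869393 to 73871242, plus strand) had 2.28, 2.81 and 2.58 CPM in shCTRL and 2.25, 3.45 and 1.89 in shFITM2, with the shFITM2 libraries on both sides of the controls. Its log2 fold change was −0.02 ± 0.267 (95% interval −0.60 to 0.57), and 0.13 ± 0.265 with the GC offset. CXCL3 (ENSG00000163734, chromosome 4, 74036589 to 74038807, minus strand) had 1.91, 1.14 and 1.23 CPM against 1.21, 2.24 and 1.59, with overlapping groups. The interval for CXCL3 ran from −0.51 to 0.97 around 0.23, and with the offset its value was 0.41 ± 0.338. That offset value went down to 0.15 without shFITM2 replicate 2 and up to 0.67 without shCTRL replicate 1. CXCL2 (ENSG00000081041, chromosome 4, 74097035 to 74099293, minus strand) had 8 to 23 reads per library. The interval for CXCL2 ran from −1.21 to 0.70 around −0.25, and with the offset it was −0.13 ± 0.438. A change of 1.4-fold such as that fitted for CXCL8 with the offset lies within the offset fit's intervals for all 3 genes, whose upper ends were 0.69 (CXCL1), 0.80 (CXCL2) and 1.13 (CXCL3).

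These 3 genes are close copies of each other, and how reads that map to several places were counted is not given in the sources used here. CXCL1 shared 5.73% of the 50-base stretches of its longest coding transcript with CXCL2 and 0.573% with CXCL3, and CXCL3 shared 5.26% of its own with CXCL2. CXCL8 shared none with any of them. The sum of the 3, which does not depend on how such reads were divided among them, was 4.82, 5.19 and 4.81 CPM in shCTRL and 3.90, 6.73 and 4.42 in shFITM2. The means were 4.94 ± 0.218 and 5.02 ± 1.51 CPM (SD, n = 3), and the groups overlapped, with shFITM2 replicate 2 the highest and shFITM2 replicate 1 the lowest.

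CXCL8, CXCL1, CXCL3 and CXCL2 lie in 1 cluster, 128.9, 298.3 and 358.8 kb apart as counted from the CXCL8 start to the other starts. The genes between them had few or no reads. CXCL6, another neutrophil chemokine, had 9 to 17 reads per library, beside 8 to 23 for CXCL2. PF4 had 0 to 9 and CXCL5 0 to 2. PPBP and PF4V1, chemokines known from platelets, had 0 reads in all 6 libraries, which allows up to 0.177 CPM in a library (3 counts; counting error only).

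**Figure D2:**
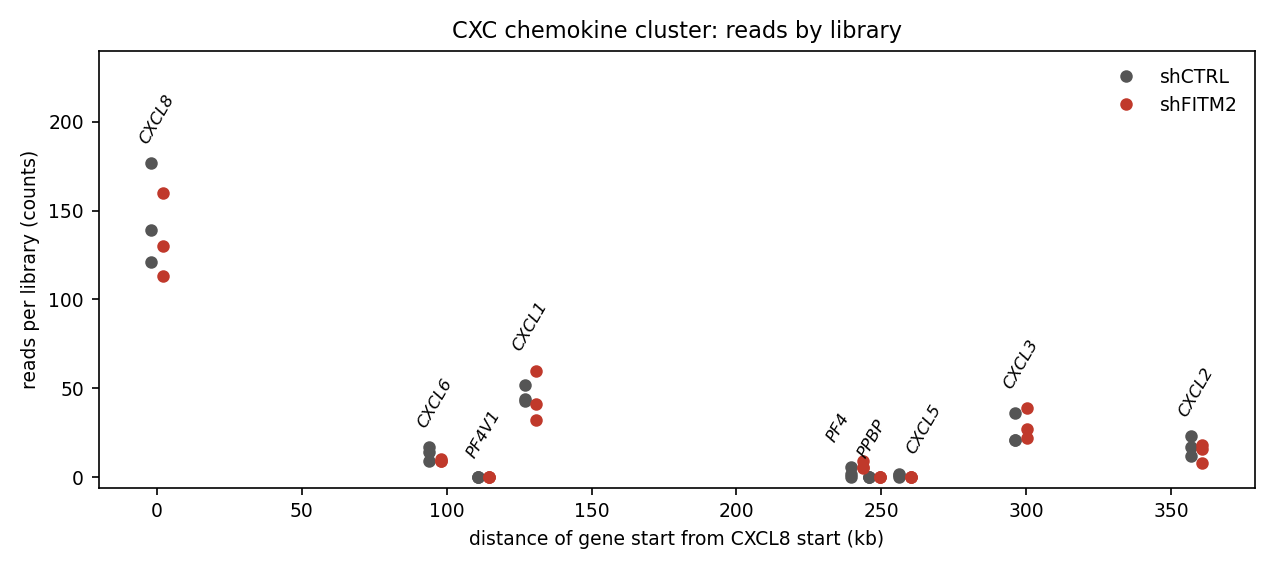
Reads per library (counts, linear axis) of the 9 CXC chemokine genes of the chromosome 4 cluster against the distance of each gene start from the CXCL8 start in kb, for 3 shCTRL (grey) and 3 shFITM2 (red) libraries. Reads concentrate in CXCL8 (113 to 177), followed by CXCL1 (32 to 60), and the groups overlap in these and in CXCL3 and CXCL2.

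CXCL16, the membrane-bound ligand of CXCR6, was called higher in the group fit. CXCL16 (ENSG00000161921, chromosome 17, 4733526 to 4739922, minus strand) had 10.01, 8.87 and 11.7 CPM in shCTRL and 13.9, 14.4 and 11.6 in shFITM2. The lowest shFITM2 library, replicate 3, lay just under the highest control, replicate 3. The log2 fold change was 0.39 ± 0.139 (adjusted p = 0.0379, edgeR), and it missed the threshold when shCTRL replicate 1 or 2 was left out (adjusted p = 0.102 and 0.126), or shFITM2 replicate 1 or 2 (0.126 and 0.15). Without shCTRL replicate 3 it was 0.49 (adjusted p = 0.00289). The transcript has 56.0% GC, and with the GC offset the value was 0.04 ± 0.12 (95% interval −0.22 to 0.29; adjusted p = 0.857). CXCL16 overlaps 85 bases of MED11 on the opposite strand, a gene with 60 to 144 reads per library, and whether reads were counted by strand is not given in the sources used here.

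Of the other lymphocyte-attracting chemokines, CCL28 was tested and did not pass, and CCL20 had too few reads for a test. CCL28 (ENSG00000151882, chromosome 5, 43376645 to 43412391, minus strand) had 7.21, 6.17 and 5.51 CPM in shCTRL and 3.95, 5.29 and 4.60 in shFITM2. All 3 shFITM2 libraries lay below all controls, yet the log2 fold change of −0.45 ± 0.18 just missed the threshold (adjusted p = 0.0562, edgeR). CCL28 was called without shCTRL replicate 3 (−0.54, adjusted p = 0.0145). Under the GC offset it was −0.09 ± 0.172 (95% interval −0.46 to 0.27; adjusted p = 0.734), at a transcript GC of 40.2%. CCL20 (ENSG00000115009, chromosome 2, 227805739 to 227817564, plus strand) had 8, 5 and 0 reads in shCTRL and 4, 3 and 4 in shFITM2. The library without a read, shCTRL replicate 3, allows up to 0.176 CPM, and the other 5 libraries held 0.173 to 0.424 CPM.

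IL18 was called lower in the group fit. IL18 (ENSG00000150782, chromosome 11, 112143251 to 112164117, minus strand) had 4.93, 6.49 and 6.10 CPM in shCTRL and 3.35, 3.85 and 4.36 in shFITM2, so that every shFITM2 library lay below every control. The log2 fold change was −0.60 ± 0.187 (66.0% of the control mean; adjusted p = 0.0195, edgeR). IL18 missed the threshold when shCTRL replicate 2 was left out (adjusted p = 0.06), or shFITM2 replicate 1 or 2 (0.0856 and 0.0597), and was called without shCTRL replicate 3 (−0.57, adjusted p = 0.0168). The GC offset gave −0.32 ± 0.184 (95% interval −0.71 to 0.07; adjusted p = 0.211), and the GC-adjusted groups overlapped, at 4.41, 5.66 and 5.86 against 3.76, 4.26 and 4.71 CPM. IL18 lies within AP002884.3 on the opposite strand, which held 1 read in all libraries together.

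IL32 (ENSG00000008517, chromosome 16, 3065297 to 3082192, plus strand) was close to silent. It had 2, 4 and 8 reads in shCTRL and 12, 8 and 4 in shFITM2. The groups overlapped, and IL32 did not pass the filter on low counts.

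LCN2 was the most abundant of the 10 genes and, with all 6 libraries, had the largest fitted change in the group fit. The change of IL18 was the larger in size without shCTRL replicate 1 (−0.71, against 0.67 for LCN2) or without shCTRL replicate 2 (−0.52 against 0.50). LCN2 (ENSG00000148346, chromosome 9, 128149071 to 128153455, plus strand) had 1415, 1026 and 1704 reads in shCTRL and 2287, 2261 and 1977 in shFITM2, or 74.98, 55.5 and 99.95 against 125.5, 130.02 and 116.6 CPM. All shFITM2 libraries lay above all controls, at 124.1 ± 6.83 against 76.8 ± 22.3 CPM (SD, n = 3), and the controls spread more widely than the knockdown libraries. The log2 fold change was 0.69 ± 0.2 (1.62-fold; 95% interval 0.21 to 1.17; adjusted p = 0.0281, edgeR). LCN2 missed the threshold when shCTRL replicate 1 was left out (adjusted p = 0.0703), or shFITM2 replicate 1 or 2 (0.0704 and 0.0707). Without shCTRL replicate 3 the value was 0.92 (adjusted p = 3.11e-05).

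The LCN2 transcript has 54.7% GC. The 3 controls stood in the same order for LCN2 as for the GC slope, with replicate 2 lowest (slope −0.34), then replicate 1 (−0.27), then replicate 3 (−0.06). Once GC-adjusted, LCN2 had 84.2, 64.1 and 104.3 CPM in shCTRL and 111.7, 117.6 and 107.5 in shFITM2. The controls kept the same order after the adjustment, with an SD of 20.1 CPM against 22.3 before it. What sets the order of the controls was not tested. The groups still did not overlap, but LCN2 was not called, at 0.41 ± 0.187 (95% interval −0.08 to 0.91; adjusted p = 0.181). It was called with the offset without shCTRL replicate 2 (0.25, adjusted p = 0.0378) or without shCTRL replicate 3 (0.59, adjusted p = 0.00443).

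**Figure D3:**
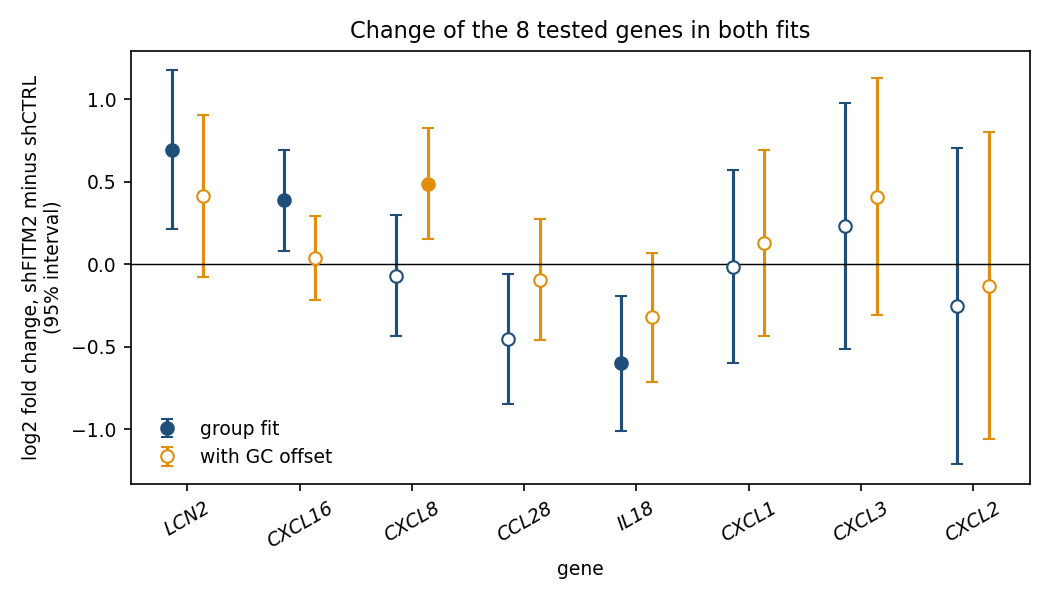
Log2 fold change (shFITM2 minus shCTRL) with its 95% interval for the 8 tested genes, in the group fit (blue) and with the GC offset (orange), 3 libraries per group. Filled points passed an adjusted p under 0.05: LCN2, CXCL16 and IL18 in the group fit and CXCL8 with the offset.

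Placed by GC content, the 2 genes called higher in the group fit were those of the 8 with the most GC (54.7% and 56.0%). CCL28 (40.2%) and IL18 (42.3%), whose libraries were lower without overlap, were poorer in GC than all of the 8 but CXCL8. The median log2 fold change of all tested genes ran from −0.47 in the bin lowest in GC to 0.70 in the highest, with a Spearman correlation of 0.744 across genes, which are not independent replicates. In the group fit, LCN2 at 0.69 stood above the median of 0.20 of its GC bin (51.9% to 55.1%), and CXCL16 at 0.39 near the median of 0.36 of its own (55.1% to 58.3%). CCL28 at −0.45 stood near the median of −0.40 of its bin (38.7% to 41.2%), and IL18 at −0.60 below the median of −0.31 of its bin (41.2% to 43.4%). The cause of the trend was not tested.

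**Figure D4:**
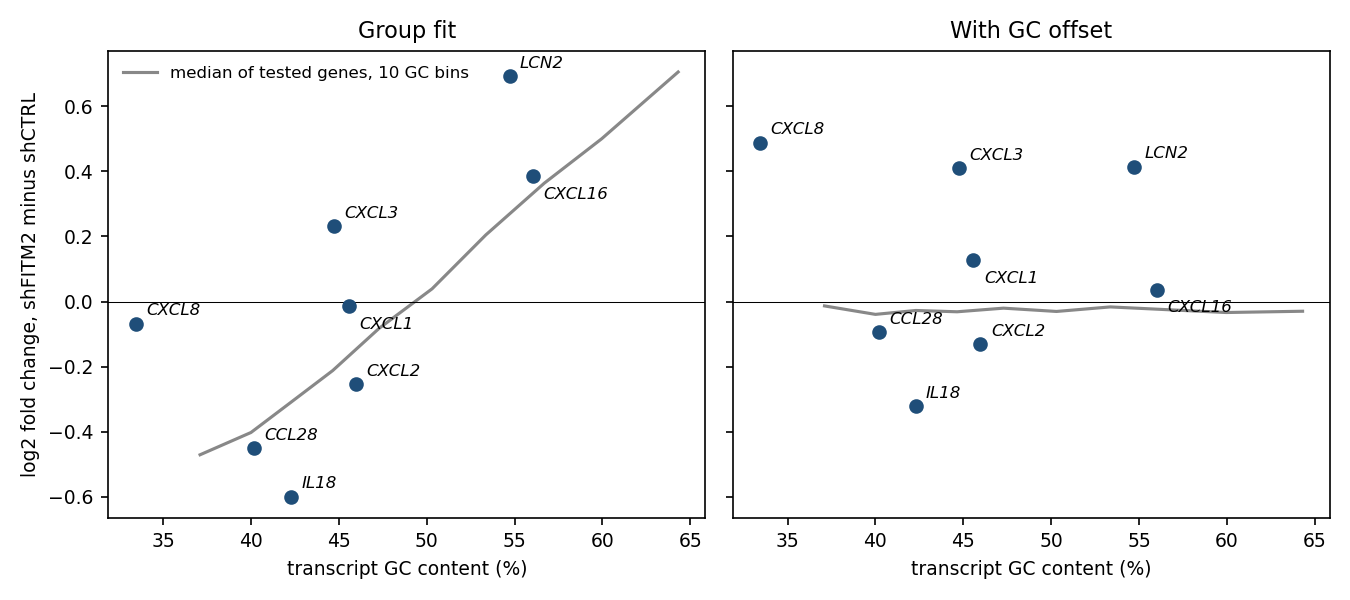
Log2 fold change of the 8 tested genes against transcript GC content (percent), in the group fit (left) and with the GC offset (right), with the median of all tested genes in each of 10 GC bins as a grey line. In the group fit CXCL16 and CCL28 lie near the line. CXCL3, LCN2 and CXCL1 lie above it, and IL18 and CXCL2 lie below it. CXCL8 (33.4% GC) lies to the left of the line, which begins at 37.1% GC. The CXCL8 value of −0.07 is above the median of −0.47 of the lowest bin. With the offset the line runs near 0.

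The 3 protein-coding genes whose log2 CPM followed LCN2 most closely over the 6 libraries, among 9934 with a mean of at least 5 CPM, were RBM19 (Pearson r = 0.999), RNF31 (0.999) and BRD2 (0.999). The libraries fall into the 2 groups of the comparison, and LCN2 also spread among the controls, from 55.5 to 99.95 CPM. These values therefore describe a shared pattern of groups and of that spread together. RBM19, RNF31 and BRD2 had log2 fold changes of 0.52, 0.71 and 0.43 in the group fit, all called, and of 0.23, 0.14 and 0.14 with the GC offset, none called (adjusted p = 0.079, 0.482 and 0.15, edgeR). RNF31 overlaps 888 bases of PSME2 on the opposite strand, a gene with 6565 reads against its own 1278.

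HT29 cells held few reads for the receptors of these ligands. None of 11 receptor genes passed the filter, and together they summed to 0.645 to 1.298 CPM in shCTRL and 0.805 to 1.003 in shFITM2. CXCR2, the receptor of the neutrophil chemokines, CCR6, ACKR1 and the LCN2 receptor gene SLC22A17 had 0 reads in all libraries, each of which allows up to 0.177 CPM in a library. CXCR6, the receptor of CXCL16, and IL18R1 had reads in every library, 3 to 13 and 3 to 8. Of 33 other chemokine genes, 18 had no read, 2 were tested and none was called in either fit. The tested ones, named after their values were seen, were CCL15 (−0.28 and −0.12 with the offset, adjusted p = 0.572 and 0.865, edgeR) and CXCL17 (0.47 and 0.57, adjusted p = 0.461 and 0.422).

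Genes that process or release these proteins were called in both directions. Of 9 tested, 4 were higher and 2 lower in the group fit (median 0.30), and 3 higher and none lower with the GC offset (median −0.02). Here and in the lists that follow, counts stand beside 24.2% higher and 24.5% lower of all genes tested. With the offset these shares were 11.8% and 17.4%. GSDMB, a gasdermin, rose in both fits, by 0.71 and by 0.73 with the offset (adjusted p = 0.00299 and 0.00118, edgeR). GSDMD, the pore former through which mature IL18 leaves cells, and PYCARD, the inflammasome adaptor, had 0.69 and 0.59 in the group fit and −0.08 and −0.04, not called, with the offset (adjusted p = 0.669 and 0.887). ADAM10, a sheddase of CXCL16, was called in opposite directions, at −0.26 (adjusted p = 0.00566) and 0.16 with the offset (adjusted p = 0.0315). CASP1, the caspase best known for cutting IL18, had 0 reads in all 6 libraries. CASP4, another caspase gene of this list, had means of 35.2 CPM in shCTRL and 43.4 in shFITM2. It was called higher in both fits, at 0.30 and 0.42 (adjusted p = 0.0148 and 0.00122, edgeR).

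Among 31 tested receptors and adaptors that lead to NF-kB, 10 were higher and 8 lower in the group fit and 2 and 8 with the GC offset, with medians of 0.06 and −0.12. The fits did not call all the same genes. LTBR and IRAK1 were called higher in the group fit, at 0.34 and 0.46 (adjusted p = 0.0123 and 0.000971, edgeR). With the offset both were called lower, at −0.30 and −0.21 (adjusted p = 0.00026 and 0.0033, edgeR). The kinase gene IRAK4, of the interleukin-1 receptor and Toll-like receptor complex, fell in both fits, with log2 fold changes of −0.94 and −0.65 (adjusted p = 0.000398 and 0.00124, edgeR). IRAK2, a gene of the same family, rose in both, with 0.77 and 0.62 (adjusted p = 0.00223 and 0.00547, edgeR). MAP3K7, which encodes the kinase TAK1, had −0.72 and −0.32, and its partner TAB2 −0.57 and −0.19, both called in both fits. TAB3, a related partner, had −0.58 and −0.21 and passed only without the offset (adjusted p = 0.000595, against 0.0852 with it).

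Of 20 tested NF-kB factors, kinases and inhibitors, 8 were higher and 5 lower in the group fit and 1 and 2 with the GC offset, with medians of 0.44 and 0.02. Over all genes tested, 24.2% were higher and 24.5% lower, and 11.8% and 17.4% with the offset. RELB, an NF-kB subunit of the noncanonical pathway, rose in both fits, with 1.28 and 0.50 (adjusted p = 9.02e-05 and 0.00661, edgeR). CHUK, which encodes the kinase IKK-alpha, fell in both, with −0.67 and −0.28 (adjusted p = 0.000125 and 0.00353), and overlaps 37 bases of ERLIN1 on the same strand. NFKB2 had 0.93 and 0.27 and the inhibitor gene TNIP2 0.61 and −0.01, neither of them called once the offset was used (adjusted p = 0.0921 and 0.931).

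Chemokine mRNAs such as CXCL8 carry AU-rich elements and are known to be short-lived. Of 15 tested factors that bind or degrade such mRNAs, 6 were called higher and 7 lower, and 4 and 2 with the GC offset, with medians of −0.20 and 0.03. TIA1 and RC3H2 were called lower in the group fit, at −0.27 and −0.29 (adjusted p = 0.012 and 0.0124, edgeR). With the offset both were called higher, at 0.19 and 0.14 (adjusted p = 0.0146 and 0.0406, edgeR). CNOT1 and CNOT7, subunits of the deadenylase complex, fell in both fits, with −0.54 and −0.38 for CNOT1 and −0.82 and −0.33 for CNOT7 (adjusted p = 7.03e-05, 7.24e-06, 7.45e-05 and 0.000393, edgeR). HNRNPD, which encodes the AU-rich element binding protein AUF1, rose by 0.31 and by 0.60 with the offset (adjusted p = 0.00175 and 2.88e-06). KHSRP had 0.57 and 0.07 and lost its call with the offset (adjusted p = 0.266). CNOT7 overlaps 308 bases of VPS37A on the opposite strand.

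**Figure D5:**
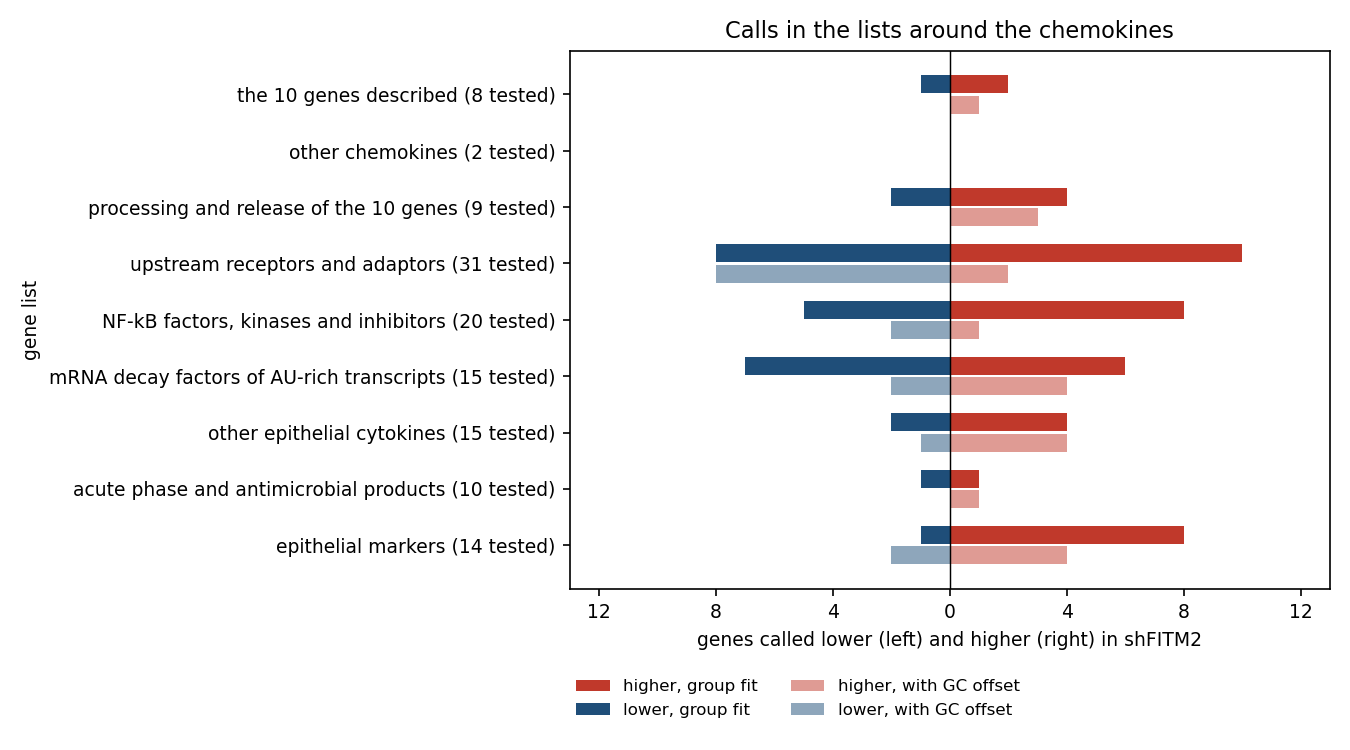
Number of genes called lower (bars to the left) and higher (bars to the right) in shFITM2, in the group fit (dark) and with the GC offset (light), for the 10 genes and the lists around them, with the number tested beside each name. Among NF-kB factors the calls go from 8 higher and 5 lower in the group fit to 1 and 2 with the offset.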

How the data were processed

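The authors deposited a table of raw read counts per gene for all 6 libraries, from strand-preserving libraries (NEBNext Ultra Directional, per the labels' protocols). The submitters' processing notes name the genome hg19 and, without a role, DESeq2 1.16.1, featureCounts 1.5.0-p3, HISAT2 2.0.5 and StringTie 1.3.3b. All 58735 Ensembl genes of the table, of 58978, have the GRCh38 position of GENCODE release 29, so coordinates are on GRCh38. Strand setting and multi-mapping rules: not given in the sources used here. Gene length in bases is the authors' deposited column.

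Counts were filtered in edgeR 4.0.16 (minimum count 10, minimum total 15), scaled by TMM and tested with the quasi-likelihood F-test (robust, group as the sole term; limma 3.58.1, R 4.3.3) over all 14809 genes, with Benjamini-Hochberg adjustment. For the GC offset, the log2 deviation of every library from the gene mean (prior count 2) was fitted by a spline with 6 degrees of freedom to transcript GC, taking the longest coding transcript in GENCODE or else the longest of any kind, which 98.8% of tested genes had. Scripts were tested on simulated data. Replicates of a group differed by more than sampling noise (chi-square per gene 2.33 to 29.03), so none was taken as a repeat deposit of another.

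Named genes are the 10 genes, FITM2, up to 4 called genes with the smallest p of each list, the 3 genes most like the most abundant of the 10, and overlapping or neighbouring genes. IRAK2, CASP4, LTBR, IRAK1, TIA1, RC3H2, CXCR6 and IL18R1 were named outside that rule, after their values were seen. The 10 genes, the lists and the alternatives were chosen with earlier results of these data known. Alternatives were DESeq2 size factors, library totals, no filter, a filter at mean 1 CPM, DESeq2 1.42.0 (Wald test), limma-voom, the replicate block, length added to the offset, and each library left out. A gene that the rule for named genes picks is not reported here.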

Additional observations from a re-analysis of the deposited data

How the results depend on the processing

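With DESeq2 size factors, library totals, no filter, a filter at mean 1 CPM, DESeq2's Wald test or limma-voom, 2 of the genes were called higher and 1 lower, as in the group fit. CXCL2 did not pass the filter at mean 1 CPM and has no value there. With the GC offset, and with GC and length, 4275 and 4224 of all genes were called in place of 7205, and of the 10 genes 1 was called higher and 0 lower. CXCL8 turned to 0.49 and 0.48 and CXCL1 to 0.13 and 0.088 under these offsets. Leaving out each library in turn gave 5338 to 9008 genes called, 0 to 2 of the 10 higher and 0 to 2 lower. With the GC offset it gave 2806 to 5618, 0 to 2 higher and 0 lower; the lowest, 2806, was without shFITM2 replicate 1. Over the same libraries the log2 fold change ran from −0.31 to 0.15 for CXCL1, −0.49 to 0.044 for CXCL2, −0.035 to 0.50 for CXCL3 and −0.18 to 0.074 for CXCL8. With the offset it ran from −0.16 to 0.31 for CXCL1, −0.37 to 0.17 for CXCL2, 0.15 to 0.67 for CXCL3, −0.022 to 0.11 for CXCL16 and −0.21 to 0.0034 for CCL28. The cause of these differences was not tested.

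The replicate numbers are shared between groups. Deviations of same-numbered libraries from their group means correlated at −0.04, −0.007 and −0.07 across genes. With 3 libraries per group, these values cannot tell whether same-numbered libraries were prepared together. With the replicate block 6729 genes were called, 1 of the 10 higher (CXCL16 had adjusted p = 0.0609) and 1 lower. With GC offset and replicate block 4181 were called, 1 higher and 0 lower. Depth limits CXCL2, IL32 and CCL20 most, with at most 23, 12 and 8 reads in a library.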

Other observations

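Other cytokine genes of epithelial cells counted 4 higher and 2 lower calls among 15 tested, and 4 and 1 with the GC offset, with medians of 0.31 and 0.12. For this list and those below, the shares over all genes tested were 24.2% higher and 24.5% lower. With the offset they were 11.8% and 17.4%. GDF15, a stress-induced member of the TGF-beta family, rose from 42.3 to 84.7 CPM, at 1.003 on the log2 scale and 0.35 with the offset (adjusted p = 0.00306 and 0.00476, edgeR). VEGFA, an angiogenic growth factor, rose by 0.46 and by 0.33 (adjusted p = 0.000448 and 0.000207), and IL1RN, the interleukin-1 receptor antagonist, fell in both fits, with −0.52 and −0.58 (adjusted p = 0.00422 and 0.00175). LIF had 0.31 and −0.09 and lost its call with the offset (adjusted p = 0.448). IL6, IL33, TSLP and CSF3 had 0 reads in all 6 libraries.

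Of 38 acute phase and antimicrobial genes, 16 had no read, among them SAA1, S100A8, S100A9 and LTF, and 10 were tested. SERPINA1, a protease inhibitor, was called higher at 0.46, and the call was lost with the GC offset (0.21, adjusted p = 0.131, edgeR). Of the 10, 1 was called higher and 1 lower in the group fit, with a median of 0.35, and the median with the offset was 0.17, with 1 called higher. Among the 14 epithelial markers 8 were higher and 1 lower, and 4 and 2 with the offset. The keratin gene KRT20, a marker of intestinal differentiation, rose by 0.39 and by 0.52 (adjusted p = 0.00125 and 0.000157), KRT8 had 0.45 and 0.23, called in both fits, and KRT19 (0.57 and −0.04) and LGALS4 (0.43 and −0.006) lost their calls with the offset. KRT8 overlaps 1084 bases of KRT18 on the opposite strand.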
